A study of Mus musculus with 6 samples.

Results

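Chemokines are small secreted proteins that guide migrating cells, and chemokine receptors are the G protein-coupled receptors that read them. The family was followed here through cells of the preoptic region of the mouse hypothalamus. Its members were taken by gene symbol: every gene of the deposited table whose symbol begins with Ccl, Cxcl, Ccr, Cxcr or Ackr and a digit, or with Cx3c. That gave 65 of the 27998 genes in the table, under 59 symbols: 37 ligands, 18 receptors and 4 atypical receptors. Of the 65 genes, 53 had at least 1 UMI (unique molecular identifier, a counted transcript molecule) in the 30824 cells with at least 500 genes and at most 20% mitochondrial UMIs, and 12 had none. The cells came from 6 libraries of droplet-based single-cell RNA sequencing, 3 from female and 3 from male mice (Mus musculus). Each library pooled 3 mice aged 60 to 70 days that had been housed alone for 3 days, and the labels give no strain, genotype or agent. Tissue was broken down with protease and living cells were collected by flow sorting, so every library carries the same dissociation and sort. Libraries of 1 sex are separate pools, and p-values of the tests by sex therefore measure the spread between pools. Tests between cell types compared cells within each library, so their p-values measure how far that difference varied over the libraries.

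A ligand is named for the spacing of its first cysteines (CC, CXC or CX3C), and one receptor often reads several ligands. Atypical receptors (Ackr) bind chemokines without the usual signalling and take them up. In the brain, neuronal Cx3cl1 (fractalkine) and microglial Cx3cr1 are a known pair, Cxcl12 from vessels and meninges acts through Cxcr4 and Ackr3, and Ccl2, Ccl3, Ccl4, Cxcl1 and Cxcl2 are ligands that microglia and other cells make on activation. Ccl3 is read by Ccr1, while Ccl2, Ccl7 and Ccl12 are read by Ccr2.

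After 1002 called doublets (3.25%) were left out, 29822 cells remained, 406 in female replicate 3, 1939 in male replicate 3 and 4555 to 9365 in the other libraries. Median UMIs per cell ran between 2684 in female replicate 3 and 6757 in female replicate 2. Classes were named from marker genes fixed without the members, and members were also left out of the clustering, so each name stands for cells that resemble that type. They held 795 microglia, 77 macrophages, 64 fibroblasts, 485 endothelial cells, 451 mural cells, 916 astrocytes, 1554 oligodendrocyte precursors, 408 newly formed and 6643 mature oligodendrocytes, 13058 inhibitory and 3249 excitatory neurons, and 2122 cells stayed unnamed. Of the kept cells, 877 carried a barcode sequence that occurs in more than 1 library, 20 of them microglia or macrophages. A class entered with every library that held at least 10 of its cells: 6 libraries for most classes, 5 for mural cells, newly formed oligodendrocytes and excitatory neurons, 4 for macrophages and 3 for fibroblasts. Female replicate 3 held 13 microglia. Levels are UMIs per 1000000 UMIs of the summed cells (CPM); they are not scaled to gene length, so levels are compared between cells for 1 gene and not between genes.

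The promoters of 4 CXC ligands on chromosome 5 are shown because these ligands were found in microglia and macrophages, with that of Ccl3 on chromosome 11 beside them. Cxcl1 was found in fibroblasts too. Each is the 250 bases before the RefSeq start of the gene on GRCm38.p6, read 5′ to 3′ on the strand of the gene, with matches to the NF-kB consensus in capitals. NF-kB is the transcription factor of many inflammatory genes. Cxcl3 lies at chr5:90785851-90786100 (plus strand), Cxcl1 at chr5:90890995-90891244 (plus), Cxcl2 at chr5:90903649-90903898 (plus), Cxcl10 at chr5:92348890-92349139 (minus) and Ccl3 at chr11:83649379-83649628 (minus).
Cxcl3: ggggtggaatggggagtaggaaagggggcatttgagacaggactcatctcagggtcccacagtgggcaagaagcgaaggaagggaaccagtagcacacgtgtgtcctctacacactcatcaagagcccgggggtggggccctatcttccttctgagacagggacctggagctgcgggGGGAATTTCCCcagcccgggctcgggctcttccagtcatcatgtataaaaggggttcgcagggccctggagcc
Cxcl1: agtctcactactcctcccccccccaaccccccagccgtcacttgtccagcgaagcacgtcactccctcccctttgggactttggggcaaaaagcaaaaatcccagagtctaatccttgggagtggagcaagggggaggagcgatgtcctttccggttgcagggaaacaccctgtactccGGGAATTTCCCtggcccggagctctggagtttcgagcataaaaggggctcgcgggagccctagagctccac
Cxcl2: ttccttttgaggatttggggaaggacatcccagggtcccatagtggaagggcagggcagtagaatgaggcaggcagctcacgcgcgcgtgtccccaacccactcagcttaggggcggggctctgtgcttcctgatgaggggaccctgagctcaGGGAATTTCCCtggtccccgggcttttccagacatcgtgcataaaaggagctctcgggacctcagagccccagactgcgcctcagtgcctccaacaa
Cxcl10: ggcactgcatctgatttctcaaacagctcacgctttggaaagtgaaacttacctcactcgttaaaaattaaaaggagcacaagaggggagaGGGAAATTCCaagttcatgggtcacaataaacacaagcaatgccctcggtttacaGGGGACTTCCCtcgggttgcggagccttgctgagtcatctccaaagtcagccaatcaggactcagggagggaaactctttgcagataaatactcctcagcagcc
Ccl3: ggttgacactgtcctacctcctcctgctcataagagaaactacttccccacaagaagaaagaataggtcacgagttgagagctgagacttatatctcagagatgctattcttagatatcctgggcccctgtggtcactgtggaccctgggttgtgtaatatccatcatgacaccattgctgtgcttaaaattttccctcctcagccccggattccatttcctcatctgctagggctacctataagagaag
Cxcl3, Cxcl1 and Cxcl2 share the run GGGAATTTCCC, whose first match begins 73, 71 and 97 bases before the start in that order, and Cxcl10 has matches from 159 and 104 bases before the start. The Ccl3 window held no match. Over the 52 member promoters in the table (45 genes), 11 (21.15%) held a match on either strand, against 7.251% of all 32851 promoters of the same length. Overlapping matches were counted as 1 promoter, and a match is a description of letters, not of binding. Ccl4, Ccl2, Ccl5, Ccl7 and Cxcl16 have no entry in that table.

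Most of the family's transcripts came from few cells. Microglia, 795 of 29822 cells, held 66.2% of the members' UMIs, and members made up 4.89% of all microglial UMIs. That share lay between 4.46% in female replicate 2 and 5.56% in male replicate 3. It was 1.81% in macrophages, 1.31% in fibroblasts, 0.166% in endothelial cells, 0.0522% in inhibitory neurons and 0.0156% in mature oligodendrocytes. In bulk sums of this kind, more cells with a transcript and more transcript per cell cannot be told apart, so shares of cells are given beside levels.

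**Figure D1:**
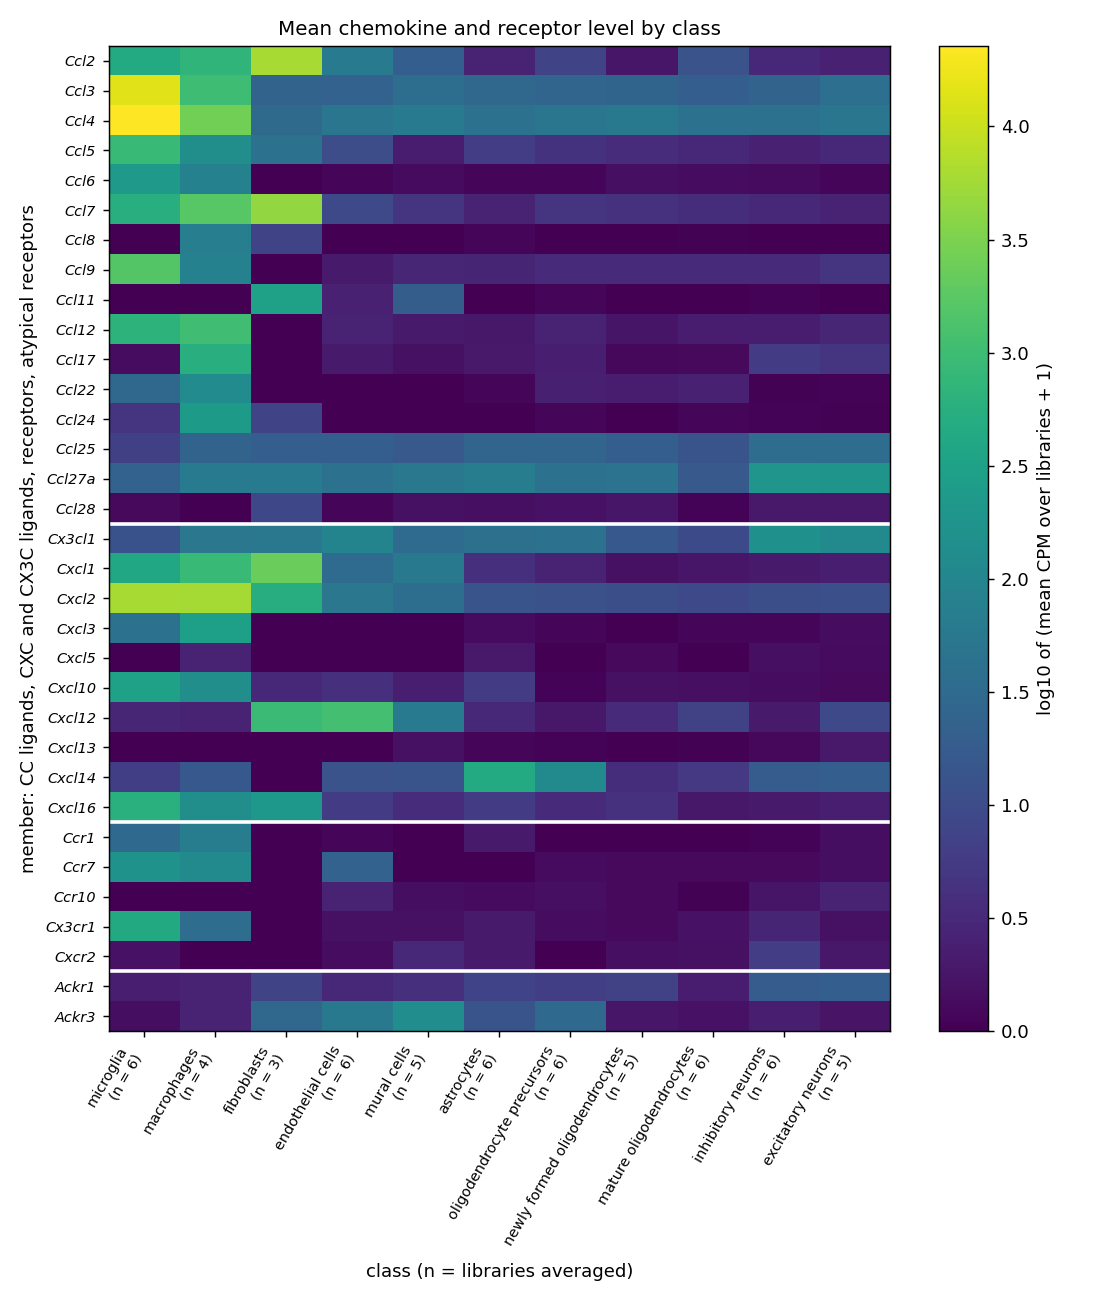
Mean level of 33 members in 11 classes, as log10 of (mean CPM over libraries + 1), with CC ligands at the top, then CX3C and CXC ligands, receptors and atypical receptors; n is the number of libraries averaged. Bright cells fall in the microglia, macrophage and fibroblast columns, with Cxcl12 bright in endothelial cells (1133 CPM), Cxcl14 in astrocytes (465.5 CPM) and Cx3cl1 in inhibitory neurons (153.9 CPM).

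Microglia were the cells of Ccl3 and Ccl4, the macrophage inflammatory proteins (chr11:83647844-83649355 on the minus strand and chr11:83662584-83664683 on the plus strand of GRCm38). Ccl4 had 21625, 19994 and 22101 CPM in the microglia of female replicates 1 to 3 and 22748, 24829 and 24967 CPM in those of male replicates 1 to 3. Ccl3 had 13489.6, 12218 and 15539 CPM in the female and 14056, 15611 and 16483 CPM in the male libraries. Every library's microglia stood far above its remaining cells, with a log2 difference of 9.06 (SE 0.32) for Ccl4 and 9.15 (SE 0.28) for Ccl3 (edgeR quasi-likelihood test, adjusted p = 1.33e-34 and 1.41e-37, n = 6 libraries each). Of 795 microglia, 753 (94.7%) held a Ccl4 UMI, 745 (93.7%) a Ccl3 UMI and 735 (92.5%) both. The pair took a median of 3.07% of a microglial cell's UMIs, with 9.3% at the 95th percentile.

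These transcripts also appeared at a low level everywhere. Ccl4 UMIs were found in 21.2% of mature oligodendrocytes and 30.2% of inhibitory neurons, at 40.42 and 41.99 CPM. Outside microglia and macrophages, Ccl4 lay between 4.2 CPM in female replicate 3 and 101.9 CPM in male replicate 1, and it moved together over classes: male replicate 1 was the highest library in mature oligodendrocytes (90.58 CPM), inhibitory neurons (101.2 CPM) and astrocytes (103.4 CPM). The ratio of Ccl4 to Ccl3 UMIs was 1.61 in microglia and 1.92 in inhibitory neurons. Over libraries it ran between 1.42 and 1.64 in microglia and between 0.714 and 2.02 in the cells outside microglia and macrophages, the 0.714 resting on 5 Ccl4 and 7 Ccl3 UMIs. The part of free RNA in these UMIs was not tested, and they are not read as expression by those cells.

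**Figure D2:**
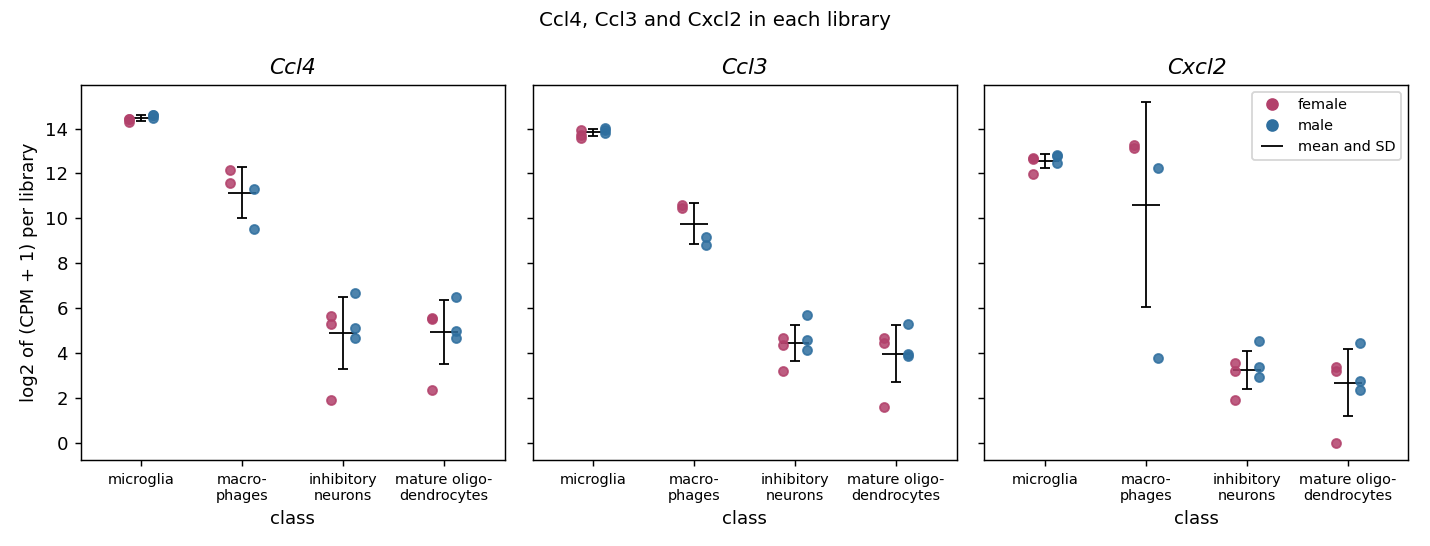
Ccl4, Ccl3 and Cxcl2 as log2 of (CPM + 1) in each library of microglia, macrophages, inhibitory neurons and mature oligodendrocytes; points are libraries, female in red and male in blue, and bars are the mean and SD of those log2 values. All 6 microglial libraries lie above every library of the neurons and oligodendrocytes, and Cxcl2 in macrophages runs between 13.03 and 9871 CPM.

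Microglia carried further ligands, and 16 of the 21 members tested there were called higher than in the remaining cells, against 18.9% of all genes tested. Only members that reached the expression filter were tested, and for members seen chiefly in microglia that filter is itself passed through microglia, so the count is a description. Cxcl2, a neutrophil attractant read by Cxcr2, had 6481, 6603 and 4055 CPM in female and 7191, 5586 and 7019 CPM in male libraries, and was in 70.9% of cells. Its log2 difference from the remaining cells was 8.22 (SE 0.27, adjusted p = 3.01e-36 by edgeR). Ccl9, a CC ligand of mice, averaged 1554 ± 602 CPM (SD, n = 6) in microglia and 3.42 CPM in the remaining cells. Ccl5, a T cell attractant, averaged 850.5 ± 230 CPM (SD, n = 6) in microglia and 2.26 CPM elsewhere, and lay in 36.6% of cells. Ccl12, a mouse ligand of Ccr2, averaged 665 ± 88.7 CPM (SD, n = 6) in 63.0% of cells. Cxcl16, the membrane-bound ligand of Cxcr6, averaged 584 ± 105 CPM (SD, n = 6) in 81.1% of cells.

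Ccl2 and Ccl7, both ligands of Ccr2, averaged 455 ± 180 CPM and 556 ± 159 CPM (SD, n = 6) in microglia. They lay in 42.6% and 34.5% of cells, and 181 cells held both. Cxcl1, like Cxcl2 a ligand of Cxcr2, was found in 107 cells (13.5%), of which 102 also held Cxcl2. Cxcl1 had 250.3, 599 and 0 CPM in female and 412.9, 346.4 and 846.5 CPM in male libraries, the 0 in the library with 13 microglia. Cxcl10, an interferon-induced ligand of Cxcr3, was more even over libraries at 311.9 ± 60.2 CPM (SD, n = 6). The remaining called ligands were Ccl6 at 220.0 CPM and Ccl22 at 27.3 CPM, on average over 6 libraries. All ligands named here were higher in microglia at an adjusted p of 1.8e-22 or less (edgeR). Members called lower in microglia were Cx3cl1, Cxcl12, Cxcl14, Ccl25 and Ccl27a, 5 of 21 tested, against 67.8% of all genes tested.

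Among receptors, Cx3cr1, the fractalkine receptor (chr9:119901616-120069879, minus strand), had 434.5, 436.0 and 711.9 CPM in female and 414.6, 381.5 and 304.4 CPM in male microglia. Female replicate 3, with 13 microglia, was the highest, and the other 5 lay between 304.4 and 436.0 CPM. The remaining cells averaged 1.26 CPM, a log2 difference of 8.17 (SE 0.21, adjusted p = 2.42e-41 by edgeR). Cx3cr1 lay in 77.9% of microglia, and in 31.7% once each cell was thinned to 1000 UMIs. Ccr7, the receptor of Ccl19 and Ccl21, lay in 27.4% of microglia at 164.1 ± 63.5 CPM (SD, n = 6; log2 8.10, SE 0.23, adjusted p = 8.35e-40 by edgeR). Of the 218 microglia with Ccr7, 105 also held Ccl5 and 27 held Ccl22. Ccr1, a receptor of Ccl3, averaged 29.6 ± 22.7 CPM (SD, n = 6) in 8.43% of cells and fell below the filter of that test. Ccr2, the receptor of Ccl2, Ccl7 and Ccl12, had 3 UMIs in 2 of 795 microglia. Cxcr6 had 36 UMIs in 18 microglia, Ccr6 28 UMIs in 27, Cxcr3 1 UMI, and Cxcr4 none, which allows a level of up to 0.707 CPM by a count of 3 UMIs.

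Microglia fell into 2 clusters that differ in these ligands. Cluster 17, with 706 cells, was led by Bcl2a1b, Cd14 and Il1a, genes of inflammatory activation, and cluster 25, with 89 cells, by Tmem119, Selplg and P2ry12, markers of resting microglia. The cells were grouped by other genes of the same cells, so the values are given with no test. Pooled over libraries, Ccl3 was at 15084 CPM in cluster 17 and 1346 CPM in cluster 25, Ccl4 at 24254 and 2212 CPM, and Cxcl2 at 7125 and 136 CPM. Cxcl16 was at 613 CPM in cluster 17 and 63.8 CPM in cluster 25. The receptor Cx3cr1 ran the other way, at 354 CPM in cluster 17 and 1056 CPM in cluster 25. Ccl6 (174 and 170 CPM) and Cxcl10 (308 and 239 CPM) were alike in both. Even in cluster 25 the level of Ccl4 was far above that of the cells outside microglia and macrophages.

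Many genes of activation and dissociation were also higher in microglia than in the remaining cells. Of all genes tested there, 18.9% were higher and 67.8% lower. Of the 14 genes of inflammatory activation, 13 were tested and all 13 were higher in microglia than in the remaining cells, with a median log2 difference of 7.06 against -1.03 over all genes tested, and Gpr84, Il1a and Tnf were among them. Their summed level ran between 15395 and 20522.5 CPM over the 6 microglial libraries. Of 16 early response genes, which protease dissociation is known to induce, 13 were higher and 1 (Fosb) lower in microglia, and their sum ran between 6762 and 22318 CPM. The same list was higher for 15 of 16 genes in endothelial cells and in fibroblasts, against 26.3% and 7.03% of all genes tested. These lists were among the genes used for clustering, and their part in the chemokine levels was not tested. Neutrophil markers summed to between 19.0 and 186 CPM in microglia and macrophage markers to between 38.3 and 85.6 CPM, while microglial markers summed to between 15805 and 21792 CPM. Of 16 genes for the cutting, binding and signalling of chemokines, 13 were tested. In microglia, 7 were higher, against 18.9% of all genes tested, among them the protease Adam17 and the signalling regulators Rgs1, Rgs10 and Dock2. Another 3 were lower (Gnai1, Arrb1 and Bace1), against 67.8%.

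Macrophages of the border tissues, named by Mrc1, F13a1, Ms4a7 and Pf4, held several of the microglial ligands and, beside them, Ccl24 and Ccl8. Pf4 is itself a chemokine-like ligand, but its symbol is outside the rule, so it is not counted among the members. Of 29 members tested, 20 were called higher than in the remaining cells, against 5.98% of all genes tested, and Ccl27a alone was lower, against 5.81%. As in microglia, members seen chiefly in macrophages passed the expression filter through macrophages, so the count is a description. Ccl24 (eotaxin-2, read by Ccr3) had 248, 302, 281 and 130 CPM in female replicates 1 and 2 and male replicates 1 and 2, lay in 53.2% of the 77 cells and averaged 0.229 CPM in the remaining cells (log2 10.17, SE 0.42, adjusted p = 2.99e-127 by edgeR). Ccl8, a ligand of mouse Ccr8, had 131 and 103 CPM in female and 20.8 and 39.1 CPM in male libraries, in 14 cells of which 1 gave 60.3% of the UMIs. Ccl7 had 3460 and 2312 CPM in female and 644 and 247 CPM in male libraries, and Ccl12 had 483 and 1084 CPM in female and 852 and 1798 CPM in male libraries. Cxcl2 had 8969 and 9871 CPM in female and 4913 and 13.03 CPM in male libraries, from 20 of the 77 cells. Ccl4 had 4517 and 3053 CPM in female and 2545 and 743 CPM in male libraries, and Ccl3 1554 and 1420 CPM in female and 582 and 456 CPM in male libraries. The libraries thus spread widely for Cxcl2. With 2 pools a sex, both female libraries stood above both male ones for 12 of the 29 members tested, among them Ccl2, Ccl3, Ccl4, Ccl7, Ccl8 and Cxcl2, and for 14.1% of all genes tested in macrophages, and no test by sex was made there. Ccr1 had 131 and 89.2 CPM in female and 51.9 and 0 CPM in male libraries, in 14 cells. The class also carried markers of mature oligodendrocytes at between 2147 and 29468 CPM and of neurons at between 1199 and 9192 CPM, whose part was not tested.

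Ccl17, Ccl22 and Ccr7, which mark mature dendritic cells, rested in macrophages on 1 cell of female replicate 1. That cell held 170, 38 and 35 UMIs of these genes among 6982, with 566 UMIs of Cd74 and 191 of H2-Aa, which present antigen, 1 of Mrc1 and none of Pf4. All 3 genes were called higher in macrophages through that cell.

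Microglia set against macrophages differed in 12 of 20 members tested, against 36.3% of all genes tested (edgeR, 4 libraries with both classes and library as block). Among those higher in microglia were Ccl3 (log2 4.21, SE 0.39), Ccl9 (4.07, SE 0.40), Cx3cr1 (3.84, SE 0.28), Ccl4 (3.50, SE 0.43), Ccl5, Cxcl16, Cxcl10 and Ccl6, with adjusted p of 0.00927 or less. Lower in microglia were Ccl24 (-5.17, SE 0.38, adjusted p = 1.18e-06), Cxcl3 (-1.90, SE 0.51, adjusted p = 0.0117) and Cx3cl1 (-1.44, SE 0.39, adjusted p = 0.0123). The call of Cx3cl1 was lost without female replicate 2 (adjusted p = 0.192), and that of Cxcl3 without female replicate 1, female replicate 2 or male replicate 1 (adjusted p between 0.0546 and 0.0771). Both calls were lost in DESeq2 (adjusted p = 0.189 for Cx3cl1 and 0.536 for Cxcl3). That of Cx3cl1 was also lost in edgeR with doublets kept (adjusted p = 0.0949) and with no expression filter (adjusted p = 0.174). Cx3cr1 averaged 447 CPM in microglia and 34.4 CPM in macrophages. For Ccl2, Ccl7, Ccl12, Cxcl1 and Cxcl2 the test did not separate the classes (adjusted p between 0.163 and 0.745), with standard errors of up to 0.85.

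The 64 fibroblasts, named by Col1a1, Dcn, Lum and Slc6a13, were cells of Ccl2 and Ccl7. Ccl2 (chr11:82035571-82037453, plus strand), the main attractant of monocytes, had 6798 and 4892 CPM in female replicates 1 and 2 and 6311 CPM in male replicate 2, against 16.3 CPM on average in the remaining cells (log2 8.43, SE 0.38, adjusted p = 1.53e-106 by edgeR). Ccl7, its neighbour on chromosome 11, had 6210 and 2730 CPM in the female libraries and 4413 CPM in the male one. Cxcl1 had 2046 and 2095 CPM in the female libraries and 2678 CPM in the male one. Cxcl12 had 917 and 783 CPM in the female and 1103 CPM in the male library and was the most widespread, in 59 of 64 cells (92.2%). Ccl11 (eotaxin, read by Ccr3), also on that stretch of chromosome 11, had 518 and 141 CPM in the female and 256 CPM in the male library, against 0.113 CPM in the remaining cells (log2 11.24, SE 0.63, adjusted p = 1.66e-67 by edgeR). Cxcl16 had 118 and 234 CPM in the female and 269 CPM in the male library. In all, 9 of 27 members tested were called higher, against 7.03% of all genes tested, and 5 lower, against 8.29%. This count too is a description, since members such as Ccl11 passed the filter through fibroblasts. Of these, Cxcl2 had 82 of its 120 UMIs in 1 cell and lost its call without male replicate 2 (adjusted p = 0.872). Ccl5 was found in female replicate 2 alone, and Ackr3 rested on 5 UMIs and lost its call when each of the 3 libraries was left out in turn (adjusted p between 0.0567 and 0.734). Ccl3 and Ccl4 were at 23.5 and 31.3 CPM, within the range over libraries of the cells outside microglia and macrophages (5.89 to 50.4 CPM for Ccl3 and 4.2 to 101.9 CPM for Ccl4). Oligodendrocyte markers summed to between 14818 and 19066.5 CPM in this class. Their list includes Apod, which is also on the list of fibroblast markers.

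In vessels the family was led by 1 ligand and 1 scavenger. Cxcl12 (chr6:117168535-117181367, plus strand) had 1314, 1019 and 1196 CPM in female and 1088, 1451 and 728 CPM in male endothelial cells, against 5.85 CPM on average in the remaining cells (log2 7.93, SE 0.25, adjusted p = 2.16e-14 by edgeR), and lay in 82.3% of them. Mural cells (pericytes and smooth muscle) had 65.0 ± 61.2 CPM of Cxcl12 (SD, n = 5). Ackr3, the atypical receptor that takes up Cxcl12 (chr1:90203980-90216751, plus strand), ran the other way. It had 78.6 and 63.2 CPM in female and 33.7, 133 and 362 CPM in male mural libraries, and 11, 15.3 and 73.2 CPM in female and 4.98, 52.8 and 182 CPM in male endothelial libraries. In both classes male replicate 3, the shallower male library, was the highest. Mural cells stood above the remaining cells by a log2 difference of 5.83 (SE 0.25, adjusted p = 1.51e-30 by edgeR) and endothelial cells by 3.90 (SE 0.34, adjusted p = 3.44e-08). Set against mural cells within libraries, endothelial cells were higher in Cxcl12 by 4.51 (SE 0.32, adjusted p = 3.88e-08) and lower in Ackr3, at a log2 difference of -1.73 (SE 0.26, adjusted p = 8.00e-05, edgeR). With no library block the Ackr3 call was lost (adjusted p = 0.0914), as was that of Ackr3 in astrocytes against the remaining cells (adjusted p = 0.154). Cx3cl1 was also higher in endothelial cells (log2 1.28, SE 0.25, adjusted p = 0.000825), so 3 of 8 members tested differed, against 35.2% of all genes tested. Cxcr4, the signalling receptor of Cxcl12, had 21 UMIs in 20 of all 29822 cells.

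In all, 4 of 15 members tested were called higher in endothelial cells, against 26.3% of all genes tested, and 3 of 20 in mural cells, against 17.1%. Cxcl1 was among both, at 32.2 ± 11.6 CPM (SD, n = 6) in endothelial and 55.7 ± 28.4 CPM (SD, n = 5) in mural cells. Ccl2 was called in endothelial cells at an adjusted p of 0.0496 (edgeR), but 107 CPM in female replicate 1 and 269 CPM in male replicate 1 stood beside 9.43 CPM in female replicate 2 and 0 in the other 3 libraries. Without male replicate 1 its log2 difference was 0.22 (adjusted p = 0.765), and without female replicate 1 it was 1.07 (adjusted p = 0.169). Haemoglobin markers of red blood cells summed to between 0 and 46690 CPM in endothelial libraries, and their part was not tested. Ackr1, which is known on the endothelium of small veins, had 8 UMIs in 8 of 485 endothelial cells.

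**Figure D3:**
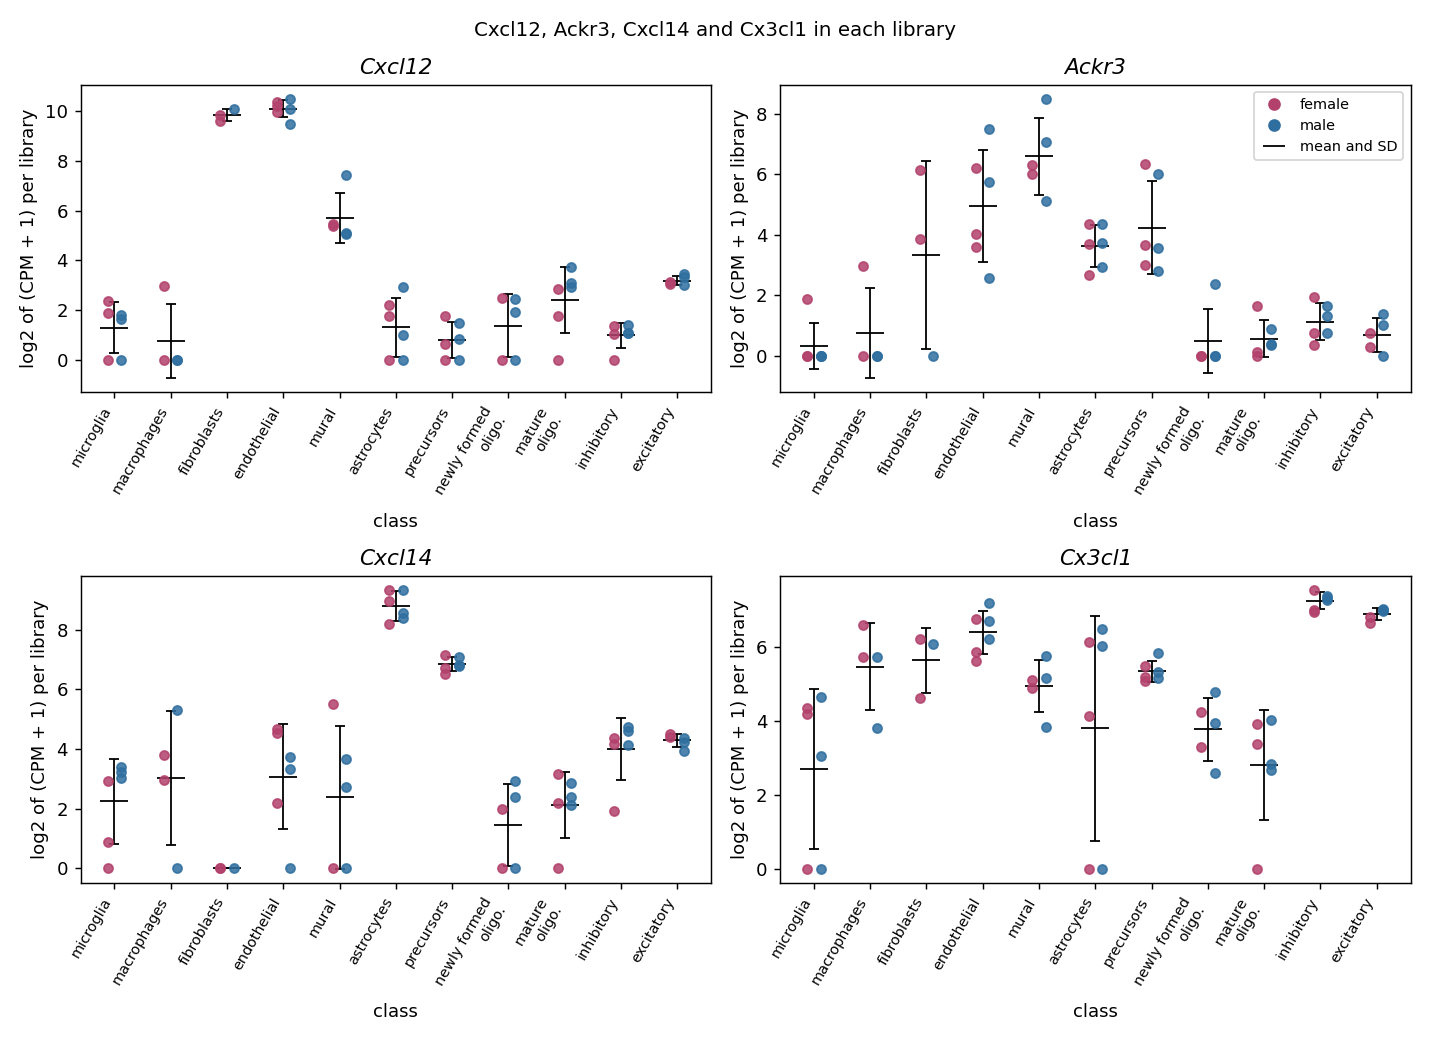
Cxcl12, Ackr3, Cxcl14 and Cx3cl1 as log2 of (CPM + 1) in each library of 11 classes; points are libraries, female in red and male in blue, and bars are the mean and SD of those log2 values. Cxcl12 is high in fibroblasts and endothelial cells, Ackr3 in mural cells, Cxcl14 in astrocytes and precursors, and Cx3cl1 in both neuron classes.

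In glia, Cxcl14 (chr13:56288643-56296551, minus strand) stood out, a CXC ligand whose receptor is debated. It had 493.9, 290.0 and 649.8 CPM in female and 377, 338 and 644 CPM in male astrocytes, with a UMI in 67.0% of cells, against 25.2 CPM on average in the remaining cells (log2 4.23, SE 0.17, adjusted p = 2e-10 by edgeR). Oligodendrocyte precursors had 104, 89.8 and 141 CPM in female and 109, 113 and 134 CPM in male libraries (log2 1.88, SE 0.09, adjusted p = 5.13e-13). Every precursor library lay above every library of mature oligodendrocytes, where Cxcl14 was at 4.22 ± 2.72 CPM (SD, n = 6). Ackr3 was the other member called in both: 12.6 ± 6.1 CPM (SD, n = 6) in astrocytes (log2 2.02, SE 0.36) and 29.8 ± 32.7 CPM (SD, n = 6) in precursors (log2 2.59, SE 0.24). In precursors it was at 79.5 and 63.3 CPM in female and male replicate 3 and between 6.03 and 11.8 CPM in the other 4 libraries. Those were 2 of 15 members tested in astrocytes and 2 of 16 in precursors, against 21.3% and 33.8% of all genes tested.

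Mature oligodendrocytes had the lowest share of member UMIs of the named classes. Of 24 members tested, 23 were lower there than in the remaining cells, against 44.1% of all genes, and 1 was higher, against 38.5%. That one was Ccl22 at 1.55 CPM in 45 of 6643 cells, and the call was lost without scaling by TMM (adjusted p = 0.273) and in DESeq2 (adjusted p = 0.0665). Within the class, cluster 10, with 214 cells led by Tmem141, Tspan2 and Mag, held Cxcl12 at 62.4 CPM pooled, in 70 cells of which 21 had at least 3 UMIs. Cluster 9 had 4.81 CPM and cluster 12 had 0.65 CPM. The endothelial marker Cldn5 was found in 2 of those 214 cells and Flt1 in 3.

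Neurons carried Cx3cl1, Ccl27a, Ccl25 and Ackr1. Not all of these were called higher in excitatory neurons than in the remaining cells. Only 2 of 26 members tested were called higher there, Ccl27a among them, against 27.8% of all genes tested. Cx3cl1 (chr8:94772009-94782427, plus strand), the ligand of microglial Cx3cr1, had 124, 127 and 188 CPM in female and 155, 161 and 168 CPM in male inhibitory neurons, and lay in 60.4% of them (log2 0.63, SE 0.11, adjusted p = 0.000631 by edgeR). Excitatory neurons averaged 119 ± 13.4 CPM (SD, n = 5). It differed by cluster, at 319 CPM pooled in cluster 0 (led by Tac1, Pdyn and Drd1, and left unnamed) and 304 CPM in cluster 1 (led by Adora2a and Penk), genes of striatal projection neurons. Cluster 0 held Gad2 in 93.8% and Slc17a6 in 3.05% of its cells. As unnamed cells, they count among the remaining cells against which inhibitory neurons were set. Inhibitory set against excitatory neurons within libraries was higher in Cx3cl1 by a log2 difference of 0.30 (SE 0.03, adjusted p = 2.65e-07, edgeR). Microglia, the cells with its receptor, had 11.4 ± 10.4 CPM of Cx3cl1 (SD, n = 6).

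Ccl27a, a skin chemokine in other tissues, was even over neurons at 184 ± 8.33 CPM (SD, n = 6) in inhibitory and 179 ± 9.85 CPM (SD, n = 5) in excitatory neurons, and was called higher in both (log2 0.92, SE 0.15 and 0.33, SE 0.06, adjusted p = 0.00029 and 0.000438 by edgeR). Near-identical copies of Ccl27a are in the table, and the gene overlaps Il11ra1 on the other strand, so its UMIs are uncertain; Il11ra1 itself was at 19.8 CPM in inhibitory neurons. Ccl25, a thymic and gut chemokine, was at 35.7 ± 7.73 CPM (SD, n = 6) in inhibitory and 35.6 ± 1.09 CPM (SD, n = 5) in excitatory neurons, and its gene overlaps Elavl1, which was at 75.02 CPM in inhibitory neurons. Ackr1, the Duffy receptor, was at 17.5 ± 3.02 CPM (SD, n = 6) in inhibitory and 18.9 ± 4.34 CPM (SD, n = 5) in excitatory neurons. Its highest cluster was 7, an inhibitory cluster led by Dgkk, Lrrc4b and Unc5d, with values between 41.7 and 49.2 CPM over 6 libraries. Ackr1 shares exon sequence on the same strand with the neuronal gene Cadm3, and Cadm3 was at 129 CPM in inhibitory neurons, 201 CPM in cluster 7 and 9.94 CPM in mature oligodendrocytes, so UMIs of the genes may not be told apart. Ccl28, read with Ccl27a by Ccr10, was at 0.948 CPM in inhibitory neurons and was the fifth member called there (adjusted p = 0.0428), a call lost in DESeq2 and when each library but female replicate 3 was left out in turn (adjusted p between 0.0532 and 0.166). That made 5 of 28 members tested in inhibitory and 2 of 26 in excitatory neurons, against 35.0% and 27.8% of all genes tested. Ccr10 had 156 UMIs in 154 cells of all classes.

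Ccl3 had a second site, in a small cluster of excitatory neurons. Cluster 22, with 167 cells led by Sln, Ctxn3, Ebf2 and Ebf3, had 386 and 194 CPM in female replicates 1 and 2 and 308 and 122 CPM in male replicates 1 and 2, the libraries with at least 10 of its cells. Ccl3 lay in 110 cells (65.9%), 53 of them with at least 3 UMIs, while the other excitatory clusters 4 and 5 had 9 such cells each among 2393 and 689, in cluster 4 all from male replicate 1. Ccl4 was at 58.0 CPM in cluster 22, within the range of other neurons, and 1 cell had at least 3 UMIs of it. Microglial Tmem119 was not found in the cluster and C1qa in 5 cells, while neuronal Snap25 lay in 164. Cxcl13, a B cell attractant, had 31 of its 96 UMIs there, in 23 cells, and 22 of those 31 UMIs came from female replicate 2. Cluster 22 was not its only site: 36.5% of its UMIs lay in unnamed cells, all in cluster 0, and 20.8% in inhibitory neurons. As classes, inhibitory neurons were lower than excitatory neurons in Ccl3, at 23.8 CPM in inhibitory and 38.1 CPM in excitatory neurons (log2 -0.45, SE 0.08, adjusted p = 0.000106, edgeR, inhibitory minus excitatory). That call was lost with doublets kept (log2 -0.20, adjusted p = 0.18) and with no library block (log2 -0.44, adjusted p = 0.479). Without cluster 22, excitatory neurons had 27.4 CPM of Ccl3 pooled, and 36.4 CPM with it. Ccl4 was at 50.1 CPM without the cluster and 50.5 CPM with it.

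**Figure D4:**
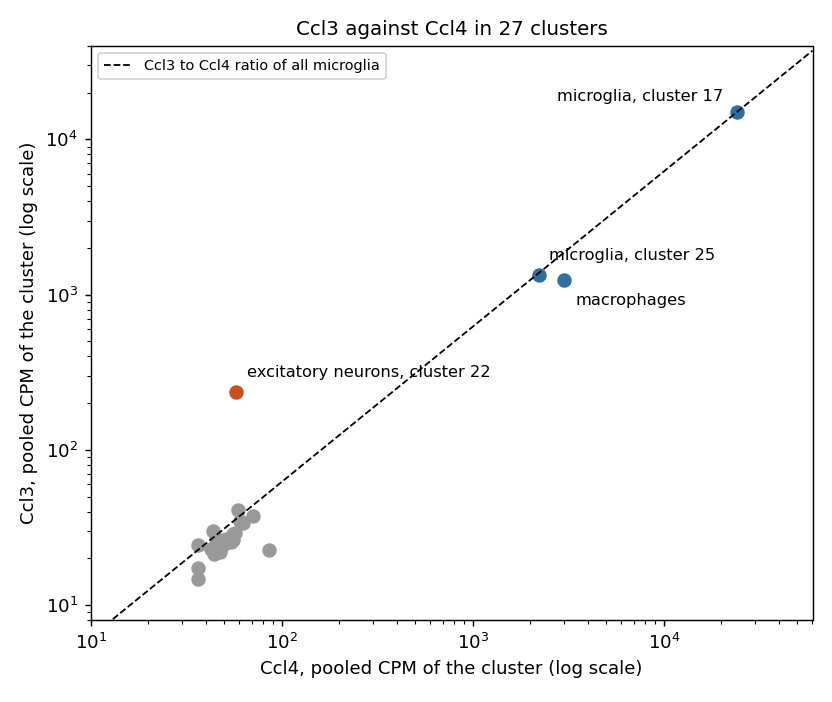
Pooled CPM of Ccl3 against Ccl4 in 27 clusters, both axes on a log scale, with the microglial ratio as a dashed line; points are clusters. Microglia and macrophages lie near the line at the top, the remaining clusters gather at the lower left, and excitatory cluster 22 lies above it with 238 CPM of Ccl3 and 58.0 CPM of Ccl4.

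Other members also marked few neurons. Cxcl12 was lower in inhibitory than in excitatory neurons, at 1.06 and 8.16 CPM (log2 -2.54, SE 0.18, adjusted p = 2.04e-11, edgeR). Its excitatory UMIs lay in cluster 4, led by Trh and Otp, with 223 UMIs in 113 of 2393 cells and 27 cells with at least 3. Cx3cr1 was found in 46 of 1101 cells of inhibitory cluster 8, led by Avp, Vip and Nms, genes of the suprachiasmatic nucleus. Of those, 15 cells had at least 3 UMIs and 1 had 19, in female replicates 1 and 2 and male replicate 1, and none held Tmem119. Cxcl14 reached 58 UMIs in 1 cell of inhibitory cluster 15 (led by Npy, Sst and Lhx6), where 148 of 1559 cells held it, against 429 of 2002 cells of cluster 0. Ccl17 was at 4.93 ± 1.76 CPM (SD, n = 6) in inhibitory neurons, in 3.23% of cells, and at 0.267 CPM in mature oligodendrocytes. In the pair of neuron classes 4 of 19 members tested differed, against 28.1% of all genes tested. The fourth was Ccl25 (log2 0.19, SE 0.06, adjusted p = 0.0143 by edgeR). Its call was lost without female replicate 2 (adjusted p = 0.0754) and without male replicate 1 (adjusted p = 0.0672). It was also lost in DESeq2 (adjusted p = 0.13) and in edgeR with no library block (adjusted p = 0.416).

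Many receptors were at or near the limit of detection. Over all 29822 cells, Ccr2 had 6 UMIs, Cxcr3 11, Cxcr5 11, Ackr2 18, Ccr9 21, Ccr6 32, Cxcr6 44 and Cxcr2 233, and Ccr3, Ccr4, Cxcl9, Ccl1, Ccl20, Ackr4, Ccl21b and Ccl21a had between 3 and 9. Of the 233 UMIs of Cxcr2, 64.8% lay in the 13058 inhibitory and 12.4% in the 3249 excitatory neurons. Microglia held 1.72% of them and macrophages none. Ccl19, a ligand of Ccr7, had 29 UMIs, 12 of them in 5 fibroblasts and 8 in 1 mural cell. Cxcr1, Ccr8, Ccr1l1, Cxcl15, Cxcl17, Ccl26 and Ccl21c had no UMI, which allows up to 0.0147 CPM over all cells by a count of 3 UMIs. These limits cover counting error only.

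Female and male libraries were compared in all cells and in 7 classes, with no replicate block. No member was called in any of the 8 comparisons by edgeR or by DESeq2. Over all genes, 0.0435% of those tested were called in all cells, 0.0607% in microglia, 0.0352% in endothelial cells, 0.0367% in astrocytes, 0.0545% in mature oligodendrocytes, 0.0528% in precursors, 0.0492% in inhibitory and 0.0555% in excitatory neurons. In microglia 20 members were tested. Ccl4 averaged 21240.1 ± 1105 CPM in female and 24182 ± 1243 CPM in male libraries (SD, n = 3 each), a log2 difference of -0.36 (SE 0.22, adjusted p = 1 by edgeR). The female and male libraries did not overlap for Ccl4 and for Cx3cr1, 2 of the 20 members tested, and did not overlap for 8.15% of all 6589 genes tested in microglia, of which 0.0607% were called. Ccl3 differed by -0.35 (SE 0.23), Ccl7 by -0.49 (SE 0.27) and Ccl9 by -0.49 (SE 0.30), while Ccl5 was at 0.28 (SE 0.29) and Cx3cr1 at 0.23 (SE 0.26). Ccl27a was the 1 member of 20 with an unadjusted p under 0.05 in microglia (log2 1.22, SE 0.42, unadjusted p = 0.00689 and adjusted p = 1 by edgeR), at 29.1, 61.3 and 0 CPM in female and 27.7, 9.31 and 9.51 CPM in male libraries, which overlap. Without male replicate 1 it was called (log2 2.13, adjusted p = 0.0186 by edgeR). Of the other comparisons, all cells had 1 such member (Ccl17, log2 1.21, SE 0.41), of whose UMIs 170 came from the 1 cell of female replicate 1 described above. Endothelial cells had Cxcl2 (-1.52, SE 0.59), mature oligodendrocytes Cxcl12 (-1.10, SE 0.43) and inhibitory neurons Ackr1 (-0.32, SE 0.15, adjusted p = 0.836 by edgeR), and astrocytes, precursors and excitatory neurons had none. Cx3cl1 was lower in females without a call, at 146 CPM in female and 161 CPM in male inhibitory neurons (log2 -0.21, SE 0.13, adjusted p = 0.872 by edgeR). Standard errors of 0.22 to 0.48 in microglia leave differences of that size undetectable with 3 pools a sex.

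**Figure D5:**
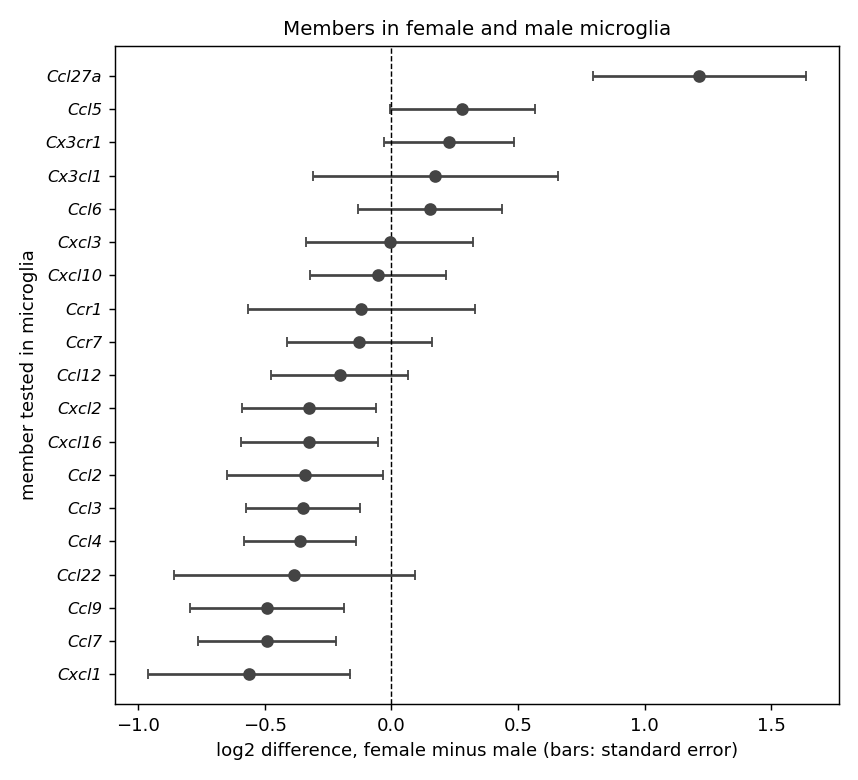
Log2 difference, female minus male, of 19 of the 20 members tested in microglia, with bars for the standard error of the edgeR fit over 3 female and 3 male libraries. No member was called, and Ccl27a lies farthest from 0 at 1.22.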

How the data were processed

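Single-cell libraries of 6 pools were used. The authors deposited UMI counts per gene and cell barcode, made with Cell Ranger 2.0.0 on mm10, per the submitters' processing notes; the sources used here name no annotation, chemistry or strand of counting. Cells with at least 500 genes and at most 20% mitochondrial UMIs were kept, and doublets were called with Scrublet in scanpy 1.11.5 (expected rate 0.06). Cells were clustered on 2000 variable genes without the members (30 components, 15 neighbours, Leiden resolution 1.0) and named from at least 3 markers. Counts were summed per class and library with at least 10 cells and tested with edgeR 4.0.16 (quasi-likelihood, TMM, minimum count 10, R 4.3.3) with Benjamini-Hochberg adjustment over all genes at 0.05. Class and pair tests carried the library as block, since both sums come from the same library, and sex tests had none. On simulated data the microglial step recovered 68.18% of 2-fold and 100% of 4-fold changes, with 3 false calls among 9994 genes, and the sex step in all cells 42.11% and 98.96%, with 7 among 16027. The simulated counts had the same spread setting for every gene and the same starting gene shares in every library. Genes with few UMIs were left out, so these rates may not hold for sparse members or for libraries that differ more. Gene positions are from the GENCODE annotation of GRCm38 and promoters from RefSeq on GRCm38.p6.

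Members and lists were chosen with earlier results of these data known. The values of 1 member are not reported here; it stays in the counts of members. Named members were those called higher in a class (up to 10 by mean level), up to 5 per direction in a pair, up to 3 per direction and smallest p by sex, and fixed ligand and receptor pairs; clusters, Ccl8, Cxcl13 and the cells singled out were chosen after their values were seen. Counts of UMIs in the deposited tables limit precision, and alternatives were other scaling, DESeq2 1.42.0, no filter, doublets kept, Leiden resolution 2.0, cells thinned to 1000 UMIs, the block, each library left out and, chosen after seeing the data, the 4 larger libraries only.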

Additional observations from a re-analysis of the deposited data

Results flagged for a closer look

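Ackr1 in macrophages, set against the remaining cells, was picked out because its log2 differences had opposite signs by sex: 0.14 and 0.11 in the female libraries and -0.55 and -0.12 in the male libraries, with means that differed by 0.46, female minus male. Macrophages held 1 UMI of Ackr1, in female replicate 2. The other 3 values come from 0 UMIs with 1 added to each count, so no direction by sex can be read from them, and the difference was not tested.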

How the results depend on the processing

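Without the expression filter, members called were 25 in microglia, 6 in mural cells, 4 in excitatory neurons, 6 between endothelial and mural cells, 8 between inhibitory and excitatory neurons and 1 by sex in endothelial cells. DESeq2 called 5 in mural cells and 0 in mature oligodendrocytes, where total UMI scaling, doublets kept and no replicate block also gave 0. Doublets kept gave 5 between endothelial and mural cells and 7 between neuron classes. In astrocytes Leiden resolution 2.0 and no replicate block each gave 1, and the neuron pair had 2 with no replicate block. With the 4 larger libraries only, excitatory neurons had 4 and the neuron pair 7. The cause was not tested. Single libraries mattered for male replicate 3 (without it 1 in astrocytes, 4 in excitatory neurons and 7 in the neuron pair), male replicate 1 (1 by sex in microglia) and, in mature oligodendrocytes, female and male replicate 2 (0 each). Leaving out 1 library gave 16 to 19 members in microglia, 17 to 19 in macrophages, 3 to 4 in endothelial and in mural cells, 7 to 9 in fibroblasts, 1 to 2 in astrocytes, 0 to 1 in mature oligodendrocytes, 2 in precursors, 4 to 5 in inhibitory and 2 to 4 in excitatory neurons, 10 to 14 between microglia and macrophages, 3 to 4 in the vessel pair, 3 to 7 in the neuron pair, 0 to 1 by sex in microglia and 0 in the other sex comparisons. Female and male libraries of the same replicate number correlated at 0.376, 0.0809 and 0.289, and other pairs between -0.352 and 0.295. Female replicates 1 and 3 were nearest the male library of the same number, and female replicate 2 was nearest male replicate 1. The labels do not say that replicate numbers pair pools, so the block stayed an alternative. A replicate block called 2 members in inhibitory neurons and 0 in the other 7 sex comparisons. Scaling by total UMIs shifted the median of all genes by -0.80 in mature oligodendrocytes, -0.35 between microglia and macrophages, -0.30 in endothelial cells and 0.20 in inhibitory neurons.

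Some values changed sign. Among called members, Ccl17 in macrophages was at -1.20 in DESeq2 and between -9.37 and 6.13 with 1 library left out, Ccl2 in endothelial cells at -1.10 in DESeq2, and Ccl5 in fibroblasts between -11.7 and 1.99 with 1 library left out. Uncalled sex differences with 1 library left out ran between -0.16 and 0.92 for Ccl27a and -0.15 and 0.26 for Cxcl12 in endothelial cells; in astrocytes between -0.76 and 0.56 for Ccl27a, -0.054 and 0.52 for Ccl25, -0.18 and 0.38 for Cxcl14 and -0.45 and 1.14 for Ccl4; in mature oligodendrocytes between -0.91 and 0.69 for Cxcl2 and -0.71 and 0.46 for Ccl4; in precursors between -0.13 and 0.61 for Ccl27a and -0.98 and 0.41 for Ccl4; between -0.065 and 2.07 for Cx3cr1 in inhibitory and -0.95 and 0.31 for Cxcl2 in excitatory neurons. By sex, Leiden resolution 2.0 gave -0.15 for Ccl25 and -0.11 for Cxcl14 in astrocytes, thinned cells -0.070 for Cxcl14 in astrocytes and 0.028 for Ackr1 in excitatory neurons, the replicate block 0.050 for Ccl4 in astrocytes, and the 4 larger libraries -0.12 for Cxcl12 in endothelial cells. The 2 members called with the block include Ackr1 (-0.40, adjusted p = 0.0385).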
